A study of Mus musculus with 78 samples.

Results

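The comparison described here set polysome-associated RNA against total RNA of the same cells under the vehicle DMSO, gene by gene. It used 6 libraries, 3 of polysome RNA and 3 of total RNA, out of 60 in the count table and 78 in the labels. The members were all genes of the table, 14695 in number, of which 12745 passed the filter on low counts and were tested.

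The cells were primary CD8+ T cells of C57BL/6J mice, taken from spleen and lymph node, activated for 3 days and then held for 3 h with DMSO, which the labels call no treatment. No agent other than the vehicle is named for these libraries, and the cycloheximide in the wash and the lysis buffer was shared by every lysate. From each lysate 50 µL was kept as input, the total RNA, and 400 µL was run on a 15 to 45% sucrose gradient cut into 15 fractions. RNA of fractions 9 to 13 was pooled in equal volumes as polysome RNA. Replicates 1, 3 and 4 each gave both a total and a polysome library. The labels do not say whether these numbers stand for separate animals or cultures, so p-values reflect a spread between libraries, estimated over all 24 libraries of the drug experiment, that may be technical. Other libraries served for comparison: cells given Halofuginone, which blocks prolyl-tRNA synthetase, Torin, an inhibitor of the mTOR kinase, or 4EGi1, an inhibitor of the binding of eIF4E to eIF4G, and the Control cells of the study's nutrient experiment, each with 3 total and 3 polysome libraries. By their labels, libraries of DMSO and drug cells were made from polyA RNA, and those of the nutrient experiment from total RNA.

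An mRNA being translated carries ribosomes, and one that carries several travels deep into a sucrose gradient as a polysome. The share of a transcript's copies in those fractions depends on how often ribosomes start on it, how fast they move and how long its reading frame is, so an mRNA with a short frame can be fully translated and still sit among few ribosomes. Activated CD8+ T cells are a known case of high protein synthesis, with large output of granzymes, cytokines, ribosomes and metabolic enzymes.

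Every ratio below is relative. Counts were scaled per library, so a change in the total amount of RNA on polysomes was not measured. For each gene the log2 ratio compares its TMM-scaled level in polysome RNA with that in total RNA. With that scaling the median ratio of all genes tested was -0.07. A ratio above 0 is thus relative to the other genes and need not mean a larger part of all counts. Levels are CPM, the count of a gene relative to all counts of its library after TMM scaling, and 3 values in a row stand for replicates 1, 3 and 4 in that order. "Higher" and "lower" refer to polysome RNA against total RNA, called at an adjusted p below 0.05 in a model over 24 libraries. A lower polysome level in bulk RNA can come from fewer cells with polysomes on that mRNA or from fewer copies per cell, which cannot be told apart.

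The total RNA libraries held 20152972, 20327315 and 21291474 counts, and the polysome libraries 22063484, 18351120 and 17846266. The 10 CD8 T cell markers were measured in every library, at a summed 11391 to 12592 CPM in total RNA and 17159 to 18237 CPM in polysome RNA without TMM factors. Summed markers of B cells, CD4 T cells, myeloid, NK, dendritic and stromal or endothelial cells stayed at or below 13.4 CPM in every DMSO library. These sums rest on few genes, since the count table held 2 of 7 listed markers of B cells, 1 of 3 of CD4 T cells and 1 of 9 of myeloid cells. It held 1 of 4 for NK, 1 of 5 for dendritic and 1 of 6 for stromal or endothelial cells. Polysome replicate 3 stood apart: its log CPM correlated with the other polysome libraries at 0.975 and 0.977, against 0.984 between those 2. Across genes, the SD of the log2 ratio within a lysate was 0.908 in replicate 1, 1.10 in replicate 3 and 0.818 in replicate 4.

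Polysome and total RNA differed in 59.3% of the genes tested. Of 12745 genes, 3616 were called higher in polysome RNA (28.4%) and 3938 lower (30.9%). All 3 polysome libraries lay above all 3 total libraries for 3742 genes (29.4%) and below them for 4218 (33.1%). Differences of at least 1 on the log2 scale were called for 1119 genes upward and 1709 downward. With library totals as the only scaling, the median of all genes moved by -0.23 and the split became 2499 higher and 5134 lower, so 32.7% of called genes were higher in place of 47.9%. Without both libraries of lysate 3 the counts were 3018 and 3295.

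The most abundant mRNAs were more often called higher than lower on polysomes. Among 446 genes at 300 CPM or more in total RNA, 52.5% were called higher and 21.7% lower, and the median log2 ratio was 0.33. From 100 to 300 CPM the shares were 38.7% and 35.9% (median 0.05). In the bin from 10 to 30 CPM, 32.2% of 2746 genes were called higher and 35.0% lower, and the median was -0.04. Below 1 CPM fewer genes were called either way, 7.87% higher and 14.0% lower.

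The genes with the highest ratios outside the histones came from several pathways. Fkbp11, a prolyl isomerase of the secretory pathway, was highest among those at a mean of at least 5 CPM that met the naming rule, at 3.83, 4.56 and 3.61 CPM in total RNA and 14.9, 25.1 and 15.3 CPM in polysome RNA (log2 ratio 2.20, SE 0.23). Myl6, an essential light chain of myosin, stood at 415, 428 and 449.6 CPM in total RNA and at 1718, 1995 and 1568 CPM in polysome RNA, a log2 ratio of 2.03 (SE 0.12, adjusted p = 4.25e-13). Nudt1, which clears oxidised nucleotides, went from 19.6, 18.9 and 21.6 CPM in total RNA to 78.5, 105 and 63.8 CPM in polysome RNA, and its log2 ratio was 2.04 (SE 0.16). The naming rule took only genes whose groups did not overlap, so their separation is no further result. Replicate 3 had the highest polysome value of these 3 genes. Among genes of at least 200 CPM the list went on with Galk1, galactokinase, at 1.80, Aprt, adenine phosphoribosyltransferase, at 1.77, Ebna1bp2, a nucleolar factor of ribosome assembly, at 1.80, Edf1, a coactivator that also binds collided ribosomes, at 1.74, and Cyba, a subunit of the NADPH oxidase, at 1.72.

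The lowest ratios outside the non-coding RNAs included those of Tmem123, a membrane protein, and Styx. Tmem123 measured 233, 285 and 253 CPM in total RNA and 33.7, 29.4 and 38.0 CPM in polysome RNA, a log2 ratio of -2.93 (SE 0.16). Styx, a catalytically inactive phosphatase, measured 27.5, 28.3 and 25.3 CPM in total RNA and 3.15, 2.74 and 4.89 CPM in polysome RNA, a log2 ratio of -2.91 (SE 0.18, adjusted p = 1.51e-12). Slc30a4, a zinc transporter, measured 64.0, 63.0 and 62.2 CPM in total RNA and 9.10, 9.09 and 12.1 CPM on polysomes (log2 ratio -2.64, SE 0.14). The groups did not overlap for any of the 3, as the naming rule required. Rnf125, a ubiquitin ligase, had a log2 ratio of -2.65, and Prrg4, a membrane protein with a Gla domain, one of -2.76. Of genes at 200 CPM or more, Fam107b fell from 661, 668 and 678 CPM in total RNA to 143, 118 and 178 CPM in polysome RNA, and its log2 ratio was -2.19 (SE 0.13, adjusted p = 8.35e-13). Mbnl1, a splicing regulator, had 353, 352 and 352 CPM in total RNA and 110.2, 55.4 and 110.4 CPM in polysome RNA (log2 ratio -1.94, SE 0.19), with the lowest polysome value in replicate 3. Rbpj, the DNA-binding partner of Notch, followed at -1.25, and Mtpn, myotrophin, at -1.39.

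**Figure D1:**
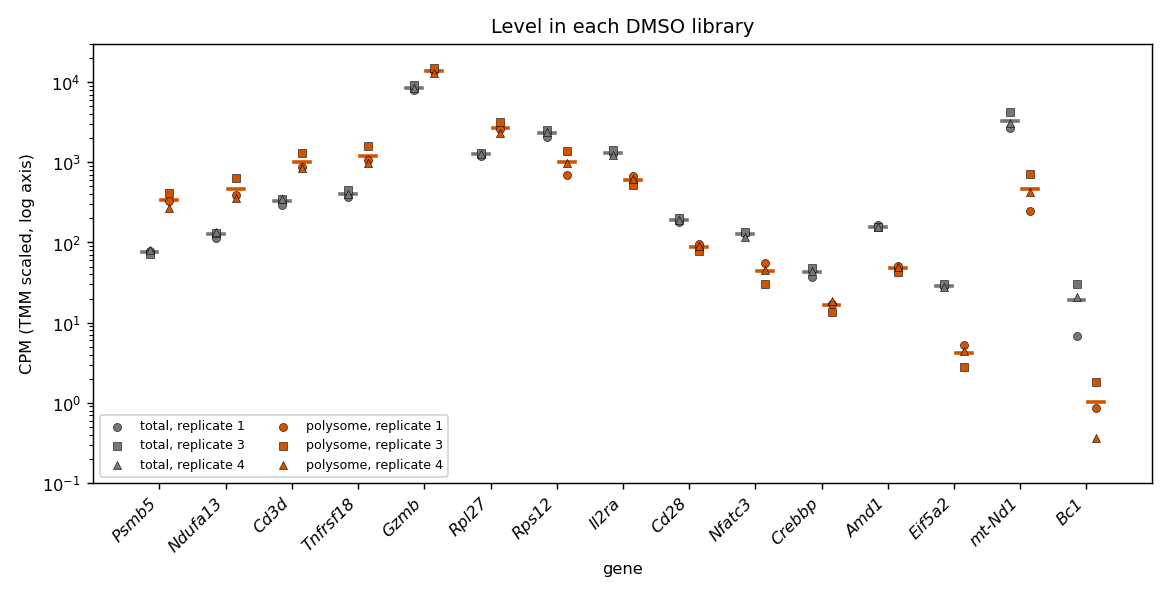
CPM (log axis) of 15 genes in each of the 6 DMSO libraries; grey symbols are total RNA, orange symbols polysome RNA, circles, squares and triangles are replicates 1, 3 and 4, and the short lines are group means. For each gene shown the 3 polysome libraries lie on one side of the 3 total libraries, above from Psmb5 to Rpl27 and below from Rps12 to Bc1.

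The proteasome, the protease complex that degrades ubiquitinated proteins, was the most evenly higher complex among the lists. Of its subunits, 34 of 37 were called higher and 1 lower, with a median log2 ratio of 1.21 beside -0.07 for all genes tested. By part of the complex, the beta subunits that form the inner rings and carry the active sites were all higher (10 of 10, median 1.63), as were the alpha subunits of the outer rings (7 of 7, median 1.21) and the ATPases at the base of the 19S cap (6 of 6, median 1.20). Of the non-ATPase subunits of the cap, 11 of 14 were called higher and 1 lower (median 0.92). These 4 classes were formed after the values were seen.

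Psmb5, the chymotrypsin-like active subunit, measured 77.4, 71.7 and 81.5 CPM in total RNA and 330.0, 409 and 269 CPM in polysome RNA. Psmb6, the caspase-like subunit, measured 190.4, 187 and 189 CPM in total RNA and 640.5, 752 and 567 CPM on polysomes, a log2 ratio of 1.79 (SE 0.12, adjusted p = 3.06e-12). Psmb10, the immunoproteasome counterpart of Psmb7, had 59.9, 54.6 and 58.1 CPM and 202, 273 and 182 CPM, a log2 ratio of 1.93 (SE 0.17). Within the lysates the log2 ratio of Psmb5 was 2.09, 2.51 and 1.72. All polysome libraries lay above all total libraries for these 3 genes, as for 29.4% of all genes tested, and the rule that named Psmb5 required it. Replicate 3 had the highest polysome value in each. Psmd1, a scaffold subunit of the cap, went the other way. It measured 135, 149 and 123 CPM in total RNA and 68.2, 72.0 and 68.6 CPM in polysome RNA. Its log2 ratio was -0.97 (SE 0.13, adjusted p = 3.21e-07). Its ratio was -0.99, -1.05 and -0.84 within the 3 lysates.

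Genes of the MHC class I route, which loads proteasome products for display, were also mostly higher: 11 of 15 were called higher and 1 lower, with a median of 0.97. Psme1, of the proteasome activator PA28, and H2-D1, a classical class I heavy chain, had log2 ratios of 1.32 and 1.27. H2-T23, which encodes the non-classical molecule Qa-1, stood at 345, 378 and 395 CPM in total RNA and 855, 1461 and 868 CPM in polysome RNA (log2 ratio 1.51, SE 0.17). H2-T22, another non-classical gene, stood at 199.4, 205 and 214 CPM and 66.1, 84.6 and 86.2 CPM, a log2 ratio of -1.38 (SE 0.11, adjusted p = 8.65e-11). Class I genes are near-identical in parts, and how reads that match several of them were counted is not given in the sources used here.

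**Figure D2:**
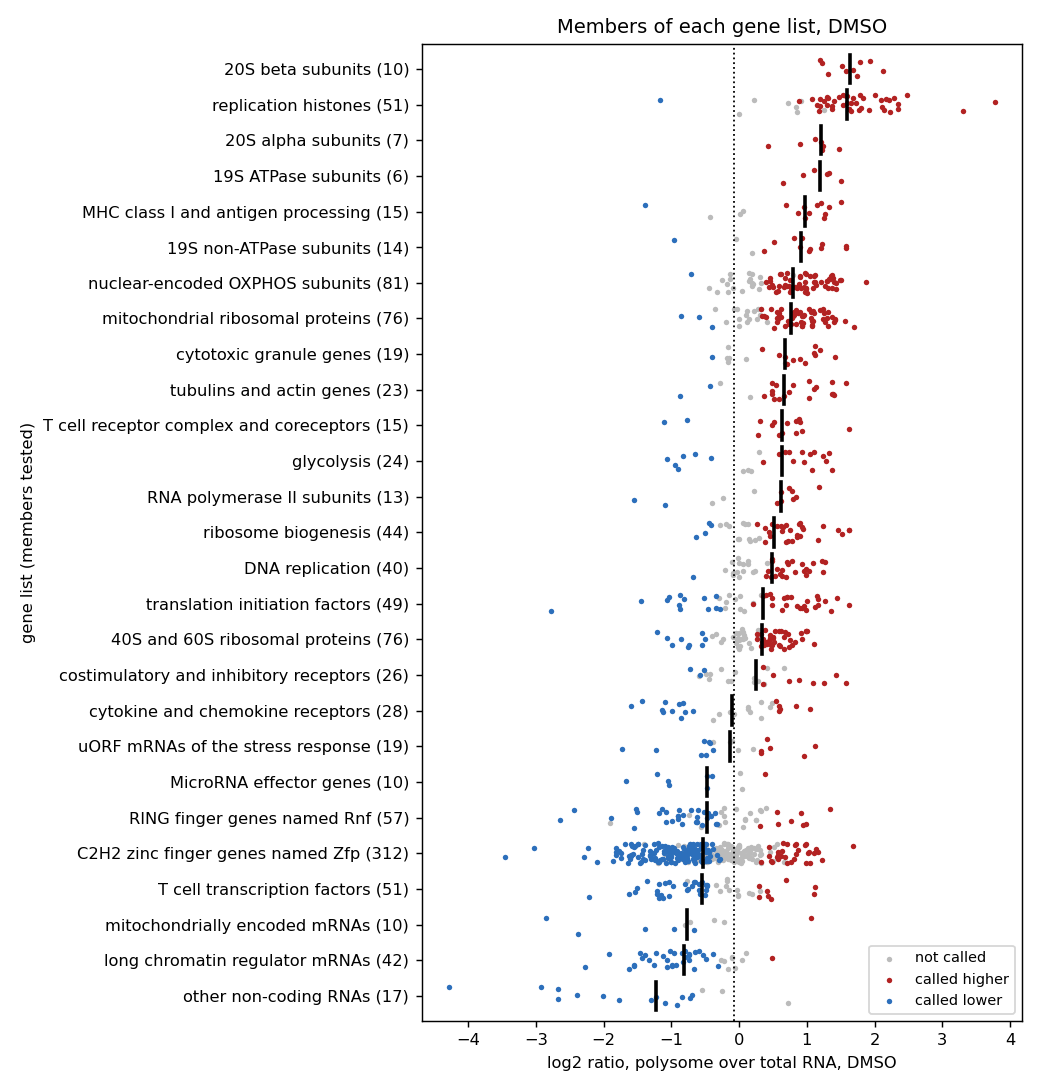
Log2 ratio of polysome over total RNA in DMSO (x axis) for the members of 27 gene lists (y axis, number tested in brackets); red points were called higher, blue lower and grey not called, black bars are list medians and the dotted line is the median of all genes tested, -0.07. Proteasome classes and histones lie to the right of that line, and chromatin regulators, T cell transcription factors and non-coding RNAs mostly to its left.

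In DMSO, nuclear genes for mitochondrial proteins were higher on polysomes as a group, whereas mitochondrially encoded mRNAs were not. Of the nuclear-encoded subunits of the respiratory chain and ATP synthase, 60 of 81 were called higher and 1 lower (median 0.79). Of the mitochondrial ribosomal proteins, 57 of 76 were called higher and 3 lower (median 0.77). Ndufa13, an accessory subunit of complex I, had 113, 131 and 135 CPM in total RNA and 392, 639 and 359 CPM in polysome RNA, a log2 ratio of 1.87 (SE 0.19, adjusted p = 2.38e-09). Ndufs8, an iron-sulphur subunit of the same complex, followed at 1.50, and Ndufv1, which binds NADH, at 1.49. Cox7a2l, a factor that joins respiratory complexes, was the lower member, at 221, 228 and 232 CPM and 110.5, 163 and 144 CPM (log2 ratio -0.71, SE 0.13). Mrps34 of the small mitochondrial subunit had 57.0, 60.2 and 62.5 CPM in total RNA and 189, 220.3 and 175 CPM on polysomes (log2 ratio 1.70, SE 0.13), whereas Mrps24 of the same subunit had 53.9, 70.3 and 58.4 CPM and 28.1, 35.8 and 36.8 CPM (log2 ratio -0.86, SE 0.15). With library totals as the only scaling, the lower members numbered 6 for the respiratory chain and 7 for the mitochondrial ribosome.

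Mitochondrially encoded mRNAs are translated inside the organelle by its own ribosomes. Of 10 tested, 1 was called higher and 5 lower, and the median was -0.77. The lower count was 8 with a replicate block for the lysate or without polysome replicate 3, and 9 with library totals only. The median was -1.31 without polysome replicate 3, -0.46 without polysome replicate 1 and -0.49 without total replicate 3. mt-Nd1, a core subunit of complex I, measured 2657, 4242 and 3059.7 CPM in total RNA and 249, 709 and 427 CPM in the polysome pool, a log2 ratio of -2.85 (SE 0.27, adjusted p = 1.03e-09). mt-Nd2 of the same complex had a log2 ratio of -1.40 (SE 0.21), while mt-Cytb of complex III, named after its values were seen, at 2626, 3758 and 3159 CPM and 1448, 3353 and 2601 CPM, overlapped between the groups (log2 ratio -0.37, adjusted p = 0.114, and 0.00363 with a replicate block). The log2 ratios of the mitochondrial mRNAs ran from -2.85 to 1.06. mt-Nd6, the one called higher, is encoded on the opposite DNA strand to the rest, and whether counting used strand is not given in the sources used here. Its groups overlapped (49.9, 101 and 75.8 CPM in total RNA, 91.1, 241 and 138 CPM in polysome RNA), and it was no longer called without polysome replicate 3 (adjusted p = 0.158), total replicate 1 (0.0736) or lysate 3 (0.0659).

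Ribosomal protein mRNAs were split. They belong to the TOP class, mRNAs that begin with a run of pyrimidines and whose translation follows mTOR activity. Of the 40S and 60S proteins, 41 of 76 were called higher and 9 lower, and the median was 0.33. Without polysome replicate 3 the higher members numbered 25, and with library totals as the only scaling 19 were higher and 14 lower. Many of these genes have near-identical processed copies in the genome, so their counts depend on how shared reads were handled.

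Rps12, of the small subunit, lay at 2071, 2563 and 2397 CPM in total RNA and 699, 1367 and 970.4 CPM in polysome RNA, a log2 ratio of -1.21 (SE 0.19, adjusted p = 4.29e-06). Rplp0, which anchors the stalk of the large subunit, lay at 5381, 5937 and 5785 CPM and 2452, 3164 and 2565 CPM (log2 ratio -1.06, SE 0.11). At the other end Rpl27 had 1199.9, 1302 and 1267 CPM in total RNA and 2598, 3170.1 and 2321 CPM on polysomes, a log2 ratio of 1.10 (SE 0.13, adjusted p = 6.64e-08). Rpl11, which also binds MDM2, had 1451, 1536 and 1539 CPM and 2863, 3653 and 2533 CPM (log2 ratio 1.00, SE 0.12). None of these 4, chosen among the highest and lowest members called, overlapped between the groups. The spread was as wide among the other TOP mRNAs, of which 9 of 19 were called higher and 6 lower (median 0.12, which turned to -0.12 with library totals only). Eif3k, a subunit of the initiation factor eIF3, and Fau, which encodes a fused 40S protein, had log2 ratios of 1.00 and 0.86. Eef1a1, the elongation factor that delivers aminoacyl-tRNA, went from 11162, 11007 and 11652 CPM in total RNA to 5465, 6786 and 6017 CPM in polysome RNA (log2 ratio -0.89, SE 0.10). Pabpc1, the cytoplasmic poly(A)-binding protein, and Tpt1, the translationally controlled tumour protein, stood at -1.17 and -1.16.

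The sequence at the start of these genes was compared because the TOP class is defined by it. A run was counted where a C was followed by at least 6 bases that were each C or T, on the coding strand, overlapping the 20 bases before to 20 after the start site in the RefSeq promoter table (GRCm38.p6). Such a run was present in 58.9% of the 56 ribosomal protein genes with an entry, in 69.2% of 13 other TOP genes and in 26.7% of all 27025 genes of the table. It stood at genes of both directions: of ribosomal protein genes with an entry, 3 of 6 called lower and 21 of 31 called higher had it. These 30-base windows are chosen examples, with the run in capitals: 3 of genes called lower, then 3 called higher.
Rps12: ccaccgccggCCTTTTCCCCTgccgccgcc
Eef1a1: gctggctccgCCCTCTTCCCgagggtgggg
Rps27: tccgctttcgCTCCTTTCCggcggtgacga
Rps9: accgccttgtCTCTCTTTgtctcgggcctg
Fau: cgcgcccccaCTTCTTCCTCTTTCTTgact
Rpl11: ggccggaagtCTCCCTCTCTCTTCCTgttc
In GRCm38.p6 they lie at chr10:23787182-23787211 (Rps12, minus strand), chr9:78481710-78481739 (Eef1a1, minus strand), chr3:90213631-90213660 (Rps27, minus strand), chr7:3704026-3704055 (Rps9, plus strand), chr19:6057934-6057963 (Fau, plus strand) and chr4:136053360-136053389 (Rpl11, minus strand). Of these genes, Rps27 had a log2 ratio of -0.55, not called without polysome replicate 1 (adjusted p = 0.0522), and Rps9, chosen with Rps27 and its window after the values were seen, one of 0.73. Ribosomal protein genes with the run had a median log2 ratio of 0.37 (33 genes), and those without it 0.28. The annotated starts may be a few bases off the true ones, so the run's position relative to the first base of the mRNA was not used.

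Other parts of the translation machinery also split by gene. Of the initiation factors, 26 of 49 were called higher and 13 lower (median 0.35). Eif1, which helps select the start codon, had 766, 723 and 772 CPM in total RNA and 2023, 2168 and 1957 CPM in polysome RNA, a log2 ratio of 1.44 (SE 0.10, adjusted p = 4.59e-12). Eif6, which keeps free 60S subunits apart from 40S, had a log2 ratio of 1.62 (SE 0.12). Eif5, the GTPase activator of the initiation complex, went from 364, 357 and 351 CPM to 184, 135 and 194 CPM (log2 ratio -1.06, SE 0.12). Eif5a2, the second gene for the hypusine-bearing factor eIF5A, fell from 28.9, 30.5 and 27.7 CPM in total RNA to 5.24, 2.81 and 4.47 CPM in polysome RNA, a log2 ratio of -2.78 (SE 0.16, adjusted p = 4.25e-13). Of the cytosolic aminoacyl-tRNA synthetases, 14 of 19 were called higher and 3 lower (median 0.53). The lower 3 were Qars1 at -0.59, Eprs1 at -0.57 and Mars1 at -0.52, which charge glutamine, glutamate with proline, and methionine. Within lysate 3 the log2 ratio was only -0.08 for Eprs1 and -0.08 for Mars1. Tested against a log2 ratio of 0.5 with edgeR's glmTreat, these 3 were not called (adjusted p = 0.138, 0.271 and 0.405). Hars1 for histidine was highest at 1.30. Of the ribosome biogenesis genes, 28 of 44 were called higher and 4 lower (median 0.52). Gar1 and Fbl, protein parts of the particles that modify rRNA, had log2 ratios of 1.63 and 1.62. Heatr1 and Polr1a, proteins of rRNA transcription and early processing, had -0.63 and -0.51.

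Of the T cell receptor complex and its coreceptors, 13 of 15 were called higher and 2 lower (median 0.63). Cd3d, a signalling chain of the receptor, measured 289.8, 344 and 354 CPM in total RNA and 863, 1307 and 860.2 CPM in polysome RNA, a log2 ratio of 1.62 (SE 0.16, adjusted p = 1.63e-09). Trbc2, a constant region of the beta chain, had 0.93 and Cd2, an adhesion receptor, 0.90. The lower 2 were Cd28, the costimulatory receptor, at 179, 201 and 193 CPM and 95.8, 77.8 and 91.0 CPM (log2 ratio -1.11, SE 0.19), and Ptprc, which encodes the phosphatase CD45, at 719, 912 and 813 CPM and 395, 529 and 513 CPM (log2 ratio -0.77, SE 0.18). Neither pair of groups overlapped, and polysome RNA lay wholly below total RNA in 33.1% of all genes tested.

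Of the cytotoxic granule genes, 12 of 19 were called higher and 1 lower (median 0.68), and with library totals only 4 were lower. Gzma, a granzyme, had a log2 ratio of 1.42 and Ctsd, a lysosomal protease, one of 1.19. Stx11, which acts in granule fusion, was the lower one at -0.41. Gzmb, the main granzyme of these cells and named after its values were seen, stood at 8025, 9175 and 8359.8 CPM in total RNA and 13821, 15179.5 and 12885 CPM in polysome RNA, a log2 ratio of 0.71 (SE 0.17, adjusted p = 0.000612). Chemokine mRNAs were higher in 4 of 5 cases. Ccl3, an inflammatory chemokine, had 410.2, 326 and 528 CPM and 1205, 1182 and 1513 CPM (log2 ratio 1.62, SE 0.22), and Ccl4 and Xcl1 had log2 ratios of 1.50 and 1.40. Among cytokines and ligands of the TNF family, 7 of 16 were called higher and 3 lower (median 0.35), and with a replicate block 10 were higher. Ltb, lymphotoxin beta, had 112, 114 and 134 CPM in total RNA and 322, 417 and 383 CPM on polysomes (log2 ratio 1.64, SE 0.12), while Tnfsf8, the ligand of CD30, had 63.4, 60.3 and 76.3 CPM and 25.7, 15.5 and 34.2 CPM (log2 ratio -1.40, SE 0.21).

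Receptor mRNAs went both ways. Of the costimulatory and inhibitory receptors, 9 of 26 were called higher and 3 lower (median 0.25), beside 28.4% of all genes higher and 30.9% lower. A replicate block gave 6 lower, and library totals only gave 6 higher and 8 lower with a median of 0.02. Tnfrsf18, which encodes GITR, stood at 369, 449 and 401 CPM in total RNA and 1066, 1581 and 994 CPM in polysome RNA (log2 ratio 1.58, SE 0.19), Tnfrsf4, which encodes OX40, had 1.44, and Lag3, an inhibitory receptor, 1.25. Icos, a relative of CD28, was lower at -0.73 and Btla, an inhibitory receptor, at -0.58, though the latter was not called without lysate 3 (adjusted p = 0.096). Of the cytokine and chemokine receptors, 6 of 28 were called higher and 11 lower (median -0.10, and 0.06 without total replicate 4). Without polysome replicate 3 the higher ones numbered 3. Il21r, for interleukin 21, was highest at 1.05. Il12rb2, the signalling chain for interleukin 12, went from 408, 469 and 387 CPM in total RNA to 217, 155 and 205 CPM in polysome RNA, a log2 ratio of -1.13 (SE 0.17, adjusted p = 1.49e-06). Ifngr2 and Tgfbr2, chains of the interferon gamma and TGF beta receptors, had log2 ratios of -1.60 and -1.43.

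Of the T cell transcription factors, 8 of 51 were called higher and 30 lower (median -0.55). Nfatc3, a calcineurin-dependent factor, had 132, 135 and 115 CPM in total RNA and 55.4, 30.6 and 44.8 CPM in polysome RNA, a log2 ratio of -1.54 (SE 0.16, adjusted p = 5.37e-09). Ikzf2, which encodes Helios, had 8.50, 9.40 and 8.73 CPM and 2.24, 1.40 and 1.99 CPM (log2 ratio -2.22, SE 0.25), and Rora, a nuclear receptor, had -1.62. Replicate 3 had the lowest polysome value of Nfatc3 and of Ikzf2. The groups did not overlap in either gene, and both were chosen among the lowest members called. The exceptions included Tbx21, which encodes T-bet, at 96.4, 82.8 and 88.2 CPM and 149, 141 and 142 CPM (log2 ratio 0.69, SE 0.11). Another was Id3, an inhibitor of E proteins, at 19.4, 19.8 and 21.7 CPM and 45.3, 42.2 and 45.0 CPM (log2 ratio 1.12, SE 0.12). The count of higher factors, 8, was 5 without total replicate 3, without total replicate 4 or without lysate 3.

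The list of long mRNAs for chromatin regulators was lower almost throughout: 1 of 42 were called higher and 33 lower, with a median of -0.81. Tet2, which oxidises methylcytosine, stood at 27.5, 34.4 and 30.9 CPM in total RNA and 7.57, 6.49 and 10.3 CPM in polysome RNA, a log2 ratio of -1.93 (SE 0.15, adjusted p = 4.58e-11). Med13, of the Mediator kinase module, stood at 69.6, 61.6 and 60.7 CPM and 23.9, 15.9 and 22.0 CPM (log2 ratio -1.63, SE 0.16). Crebbp and Ep300, histone acetyltransferases named after their values were seen, had log2 ratios of -1.39 and -1.43. The member called higher, Smarca4, a remodelling ATPase, overlapped between groups (156, 132 and 155 CPM in total RNA, 152, 259 and 209.9 CPM in polysome RNA) and was not called without polysome replicate 3 (adjusted p = 0.104), without lysate 3 (0.281) or with library totals only (0.158). Of the C2H2 zinc finger genes named Zfp, 32 of 312 were called higher and 156 lower (median -0.53). Zfp169 had 4.01, 5.72 and 4.62 CPM in total RNA and 0.610, 0.267 and 0.845 CPM on polysomes, a log2 ratio of -3.02 (SE 0.36, adjusted p = 5.73e-08), whereas Zfp593 had one of 1.67.

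Other families, put together after the values were seen, were split as well. Of the RNA polymerase II subunits, 8 of 13 were called higher and 2 lower. The lower 2 were Polr2a, the catalytic subunit, at 59.8, 52.8 and 57.9 CPM and 23.3, 13.4 and 21.3 CPM (log2 ratio -1.55, SE 0.15), and Polr2m at -1.09. Polr2g, a subunit at the stalk, was highest at 1.18. Of the genes of microRNA processing and silencing, 1 of 10 were called higher and 7 lower, with Tnrc6b, an Argonaute partner, at -1.66 and Ago2, the slicing Argonaute, at -1.04. Of the ubiquitin ligases named Rnf, 8 of 57 were called higher and 30 lower (median -0.47). Lengths of proteins and mRNAs were not analysed here.

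mRNAs with known upstream reading frames or other stress-responsive leaders had shares near those of all genes (28.4% higher, 30.9% lower). Of 19, 6 were called higher and 8 lower, and the higher ones numbered 3 without polysome replicate 4. With library totals only, 2 were higher and 10 lower. Amd1, the polyamine enzyme whose upstream frame stalls ribosomes, had 164, 155 and 155 CPM in total RNA and 51.0, 42.8 and 49.1 CPM in polysome RNA, a log2 ratio of -1.73 (SE 0.12, adjusted p = 1.23e-11). Cebpg, a bZIP factor, had a log2 ratio of -1.23. Trib3, a pseudokinase of the ATF4 program, and Ddit3, which encodes CHOP, were higher at 1.13 and 0.95. Atf4 itself, named after its values were seen, stood at 534, 538 and 542 CPM and 380.0, 404 and 419 CPM (log2 ratio -0.42, SE 0.10). For immediate early genes the shares were also near those of all genes: 12 of 36 were called higher and 11 lower. Junb, an AP-1 factor, had 589, 446 and 552 CPM in total RNA and 1288, 1318 and 1184 CPM on polysomes (log2 ratio 1.26, SE 0.16), Ier2 had 1.44, and the nuclear receptor Nr4a3 and the zinc finger factor Egr3 had -1.14 and -1.16.

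Of the glycolysis genes, 14 of 24 were called higher and 6 lower (median 0.63). Tpi1, triosephosphate isomerase, had 1538, 1380.3 and 1505 CPM in total RNA and 4114, 3409 and 3296 CPM in polysome RNA (log2 ratio 1.29, SE 0.12), Eno3, an enolase, had 1.38 and Aldoc, an aldolase, 1.32. At the low end, Pdk1, which shuts off pyruvate dehydrogenase, and Pfkfb3, which makes the activator of phosphofructokinase, had -0.94 and -1.06. In cholesterol and fatty acid synthesis, 13 of 35 were called higher and 10 lower, beside 28.4% and 30.9% of all genes tested. The median of these genes was 0.01, or -0.23 with library totals only. Without polysome replicate 3 the higher ones numbered 8, and with library totals only 7 were higher and 15 lower. Pmvk, phosphomevalonate kinase, had 45.7, 39.1 and 48.7 CPM and 150.3, 157 and 141 CPM (log2 ratio 1.75, SE 0.13), and Insig1, which retains the sterol sensor in the ER, had 126, 169 and 152 CPM and 44.5, 41.0 and 49.9 CPM (log2 ratio -1.72, SE 0.13).

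Of the cytosolic chaperones, 18 of 24 were called higher and 1 lower, and of the ER folding genes, 29 of 46 were called higher and 4 lower, with medians of 0.48 and 0.61. With a replicate block 7 of the ER genes were lower. Fkbp2, an ER prolyl isomerase, had a log2 ratio of 1.72, and Spcs3, of the signal peptidase, one of -1.07. Actb, beta actin, had 5470.2, 5534 and 5479.9 CPM in total RNA and 14578, 16703 and 12247 CPM in polysome RNA (log2 ratio 1.40, SE 0.11). Arpc3 and Arpc5, 2 subunits of the same actin-nucleating complex, had 1.59 and -0.87. Of the DNA replication genes, 24 of 40 were called higher and 1 lower (median 0.49). Tyms, thymidylate synthase, was at 1.27 and Pola1, the catalytic subunit of DNA polymerase alpha, at -0.68. Of the mitosis genes, 17 of 49 were called higher and 14 lower, near the shares of all genes. Spc24, a kinetochore protein, was at 1.56 and Knl1, a scaffold of the outer kinetochore, at -1.38.

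Replication histone mRNAs normally end in a stem-loop in place of a poly(A) tail, and these libraries are labelled polyA RNA. They held 0.0146 to 0.0174% of counts in total RNA and 0.0390 to 0.0433% in polysome RNA, against 0.393 to 0.412% in the total RNA of Control. Of the histones, 43 of 51 were called higher and 1 lower in DMSO (median 1.59). In Control, with its total RNA libraries, 7 of 51 were higher and 1 lower (median -0.01). H2bc11 measured 9.78, 10.4 and 10.1 CPM in total RNA and 42.1, 42.1 and 37.7 CPM in polysome RNA, a log2 ratio of 2.01 (SE 0.18, adjusted p = 5.76e-10). H2bc21, another H2B gene, was the lower one at 2.46, 2.37 and 3.79 CPM and 1.68, 0.334 and 1.75 CPM (log2 ratio -1.16, SE 0.35).

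RNAs without a known protein product were mostly lower. Of the long and small non-coding RNAs listed, 0 of 17 were called higher and 14 lower (median -1.22). Bc1, a small RNA polymerase III transcript, had 6.85, 30.1 and 20.8 CPM in total RNA and 0.864, 1.81 and 0.362 CPM in the polysome pool. Oip5os1, the long non-coding RNA Cyrano, had 122, 142 and 117 CPM and 18.1, 19.5 and 22.3 CPM, a log2 ratio of -2.67 (SE 0.14, adjusted p = 1.52e-13). Mir155hg, the host of miR-155, had 16.2, 24.7 and 16.1 CPM in total RNA and 1.27, 4.35 and 3.56 CPM in polysome RNA (log2 ratio -2.67, SE 0.31). Host genes of snoRNAs were less clear. Of 16, 1 was called higher and 3 lower (median -0.32), beside 28.4% higher and 30.9% lower of all genes tested. Tested against a log2 ratio of 0.5, 0 of the 16 were called lower. With a replicate block 7 of them were lower, and without polysome replicate 3 the number was 9. In Control, with its other kind of library, 15 of 15 were lower (median -2.03).

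The same ratio was then read in the drug libraries, which are not in the DMSO contrast but share its filter, scaling and estimate of the spread. Of the 3616 genes higher in DMSO, 87.0% were also called higher with Halofuginone, 81.6% with Torin and 81.5% with 4EGi1, where 28.7%, 28.1% and 27.5% of all genes were called so. Of the 3938 genes lower in DMSO, 79.0%, 74.1% and 66.4% were lower with those drugs, against 28.5%, 27.4% and 24.4% of all genes. Spearman's rho between the ratio in DMSO and the ratio with each drug was 0.885, 0.843 and 0.849 across 12745 genes, as a description over genes that share no library between conditions. The difference of the ratios was called for 0 genes with Halofuginone, for 228 with Torin (1.79%) and for 72 with 4EGi1 (0.565%). For Halofuginone the count at an unadjusted p below 0.05 was 675, and limma-voom also called 0.

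With Torin the median of the ribosomal proteins was -0.66 in place of 0.33, with 57 of 76 lower. With 4EGi1 it was -0.35, with 4 of 76 higher and 39 lower, and with Halofuginone 0.03. The median of the mitochondrially encoded mRNAs, -0.77 in DMSO, was -3.51 with 4EGi1, -1.22 with Torin and -1.10 with Halofuginone. The proteasome median stayed at 1.15, 1.07 and 1.08 with Halofuginone, Torin and 4EGi1. List medians were not tested against each other.

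**Figure D3:**
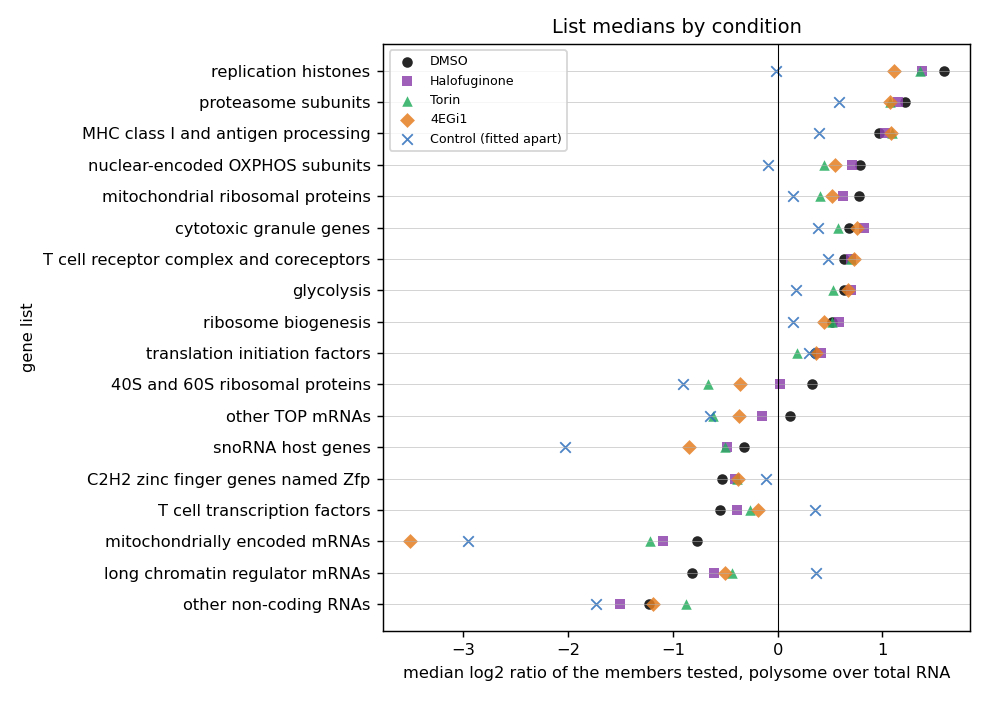
Median log2 ratio of polysome over total RNA (x axis) for the tested members of 18 gene lists (y axis) in DMSO, the 3 drugs and Control, one symbol per condition as in the key; Control was fitted apart from libraries of another kind. Proteasome medians lie between 0.59 and 1.21 in every condition, and ribosomal protein medians run from -0.90 in Control to 0.33 in DMSO.

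Control cells, whose libraries are of the other kind and were fitted apart with the rest of the nutrient experiment, shared less of the pattern. Of 3565 genes higher in DMSO and tested in both fits, 63.1% were higher in Control (37.6% of all 13072 genes tested there). Of 3886 genes lower in DMSO, 39.2% were lower in Control (28% of those 13072 genes) and 31.5% were called higher. Of the 12340 genes in both fits, 4907 were higher and 3266 lower in Control. Spearman's rho across the 12340 genes in both was 0.352, and the difference between the 2 was not tested, since library kind and experiment cannot be told apart.

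Which genes kept their side depended on the list. The proteasome median was 0.59 in Control, and that of other non-coding RNAs -1.73. Long chromatin regulators, at -0.81 in DMSO, had a median of 0.37 in Control, where 23 of 42 were called higher and 0 lower. Crebbp had a log2 ratio of -1.39 in DMSO and 1.13 in Control, and Polr2a -1.55 and 0.91. T cell transcription factors had a median of -0.55 in DMSO and 0.35 in Control, and ribosomal proteins 0.33 and -0.90. Nuclear-encoded respiratory chain and ATP synthase subunits, at 0.79 in DMSO, had a median of -0.09 in Control, where 28 of 81 were higher and 33 lower. Mitochondrial ribosomal proteins, at 0.77 in DMSO, had 0.15 in Control, where 34 of 76 were higher and 22 lower. Il12rb2 was at -1.13 and 0.95, and Nfatc3 at -1.54 and 0.46. Rps12 and Rplp0 were lower in both, at -2.90 and -1.98 in Control, where 75 of 76 ribosomal proteins were called lower. H2-T22 was also lower in both, at -2.19 in Control.

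**Figure D4:**
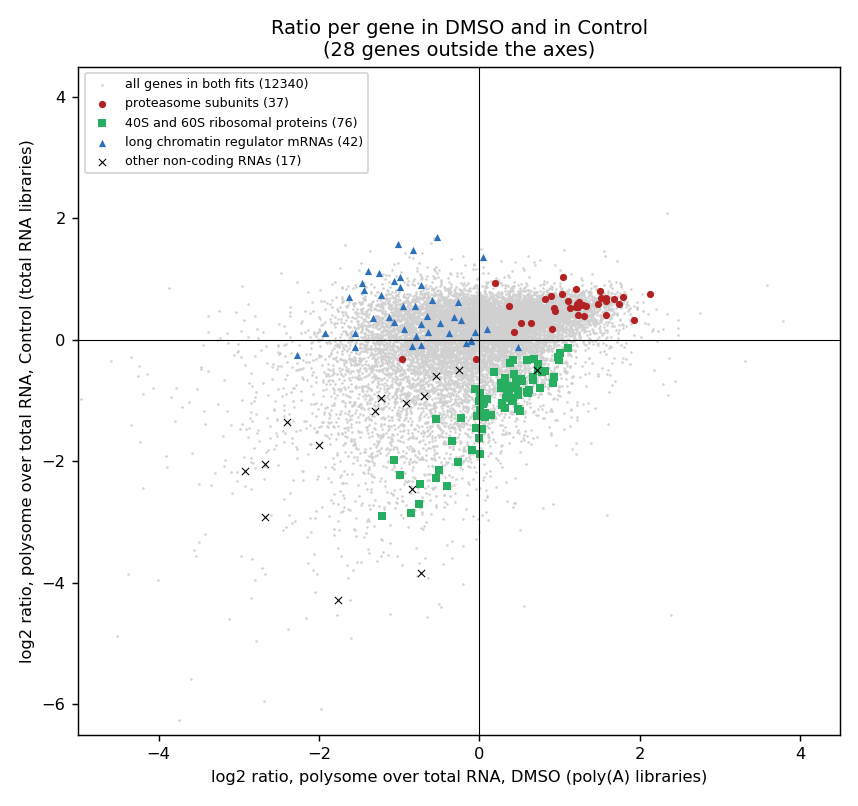
Log2 ratio of polysome over total RNA per gene in DMSO (x axis, polyA RNA libraries) and in Control (y axis, total RNA libraries) for 12340 genes in both fits, of which 28 lie outside the axes; colours mark 4 gene lists. Proteasome subunits are mostly above 0 on both axes, ribosomal proteins below 0 in Control with a median above 0 in DMSO, and long chromatin regulators mostly below 0 in DMSO and above 0 in Control.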

How the data were processed

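Mouse CD8 T cell RNA from total lysate and from pooled polysome fractions was sequenced. The authors deposited one table of raw counts per gene, per the file headers, with no normalization. The submitters' processing notes name Trimmomatic, FastQC, MultiQC, STAR, HTSeq and edgeR and the genome GRCm39, with no versions, and counting settings are not given in the sources used here. The luciferase RNA added before extraction was not used. The 18 labelled samples outside the table were not analysed here.

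From these counts, all 24 libraries of the drug experiment were fitted together as 8 groups with edgeR 4.0.16 in R 4.3.3 (filterByExpr with a minimum count of 10, TMM scaling, quasi-likelihood test, Benjamini-Hochberg adjusted p below 0.05). The standard error is the absolute log2 ratio divided by the square root of F. Levels are TMM-scaled CPM, and ratios per lysate used a prior count of 2. Control was fitted with the 36 libraries of its own experiment. The DMSO libraries held 17846266 to 22063484 counts each.

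Same-numbered total and polysome libraries come from one lysate, per the labels' protocols. The correlation of their deviations from the group means was 0.0971, 0.094 and -0.0226 in DMSO lysates 1, 3 and 4.

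The genes and lists were chosen with earlier results of these data known. Genes are named where they are the 12 highest or lowest separated calls at a mean CPM of at least 5, or of at least 200, or the 3 highest and lowest called members of a list. Others are said to be named after their values were seen. Alternatives used limma 3.58.1 (voom) and DESeq2 1.42.0, other scalings and filters, a lysate block and left-out libraries. The script was tested on simulated counts.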

Additional observations from a re-analysis of the deposited data

Results flagged for a closer look

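For some of the genes named here, the log2 ratio of polysome over total RNA with a drug differed from that in DMSO by the test of the difference itself (edgeR's quasi-likelihood test, 12745 genes, of which 228 differed with Torin and 72 with 4EGi1). Both sets of differences share the DMSO libraries. Torin minus DMSO was -1.08 for Rpl11, -1.03 for Rps9 and -0.94 for Rpl27, all ribosomal proteins. Among other TOP mRNAs it was -0.91 for Fau, -0.83 for Eif3k and -0.62 for Eef1a1, and it was -0.98 for Eif1, a factor of start-codon choice. With 4EGi1 the difference from DMSO was -3.14 for mt-Cytb, -2.61 for mt-Nd2, -2.27 for mt-Nd1 and -0.75 for Eif1. The log2 ratio was higher with 4EGi1, and nearer to 0, for Mtpn (difference 1.11), Tet2 (1.05), Psmd1 (0.82) and Fam107b (0.75).

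For other genes every Control lysate lay on the other side of 0 from every DMSO lysate. This difference was not tested, and experiment and library kind cannot be told apart in it. Below 0 in every DMSO lysate but with a log2 ratio above 0 in Control were the chromatin, transcription and small RNA genes Crebbp (1.13), Ago2 (1.04), Polr2a (0.91), Ep300 (0.82) and Med13 (0.71). The T cell genes of this kind were Il12rb2 (0.95), Cd28 (0.58), Tgfbr2 (0.32), Icos (0.30), Nfatc3 (0.46), Ikzf2 (0.27) and Rora (0.21). The activation genes Egr3 and Nr4a3 had log2 ratios of 0.70 and 0.61 in Control, and Rbpj, Pfkfb3 and Tnrc6b had 0.50, 0.42 and 0.33. Smaller values above 0 were found for Mtpn (0.17), Eif5 (0.15) and Mbnl1 (0.12).

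The opposite pattern, above 0 in every DMSO lysate with a log2 ratio below 0 in Control, was found for mt-Nd6 (-1.20), Fau (-0.59), Rps9 (-0.48) and Trbc2 (-0.48). Rpl11, Rpl27 and Eif3k had -0.21, -0.14 and -0.0875. Groups here hold 3 libraries, too few for a check of single outlying libraries.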

How the results depend on the processing

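Of 12745 genes, 3616 were higher and 3938 lower on polysomes, and no called gene was called in the opposite direction in any alternative. Testing against a log2 ratio of 0.5 (glmTreat) left 1885 higher and 2213 lower. Leaving out one library at a time gave 3291 to 3504 higher and 3589 to 3852 lower, and leaving out both libraries of lysate 3, chosen after seeing the data, gave 3018 and 3295. With the replicate block for the lysate pairing, 3784 were higher and 4169 lower. Library totals as the only scaling moved the median of all genes by -0.23 and gave 2499 higher and 5134 lower, so that 32.7% of calls were higher, against 47.9% with TMM. DESeq2 gave 3745 and 3940, and voom 3547 and 3980.

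With library totals, the higher members fell from 12 to 7 for immediate early genes, 14 to 9 for aminoacyl-tRNA synthetases, 18 to 11 for cytosolic chaperones and 32 to 21 for Zfp genes. Lower members rose from 14 to 24 for mitosis genes and from 1 to 5 for DNA replication. The median of mitosis genes, -0.02, was 0.07 without total RNA replicate 1. Without polysome replicate 3, the higher cholesterol and fatty acid genes went from 13 to 8. Of the named genes, 16 lost their call when tested against a log2 ratio of 0.5 (glmTreat). Among them were Gzmb (adjusted p = 0.0929), Ptprc (0.0648) and Atf4 (0.774). In other settings, Smarca4 lost its call with library totals (adjusted p = 0.158) and without polysome replicate 3 (0.104). The call for Btla was lost without lysate 3 (adjusted p = 0.096), that for Rps27 without polysome replicate 1 (0.0522), and that for mt-Nd6 without polysome replicate 3 (0.158) or total RNA replicate 1 (0.0736). These adjusted p-values are from edgeR, and the cause was not tested.

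With 3 libraries a group, the spread between lysates limits precision. The planned comparison by protein length was not run, since no protein lengths were at hand.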

Other observations

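Some gene groups outside the main account were split on polysomes in DMSO. Of the GIMAP and guanylate binding genes, GTPases of lymphocyte survival and of interferon defence, 11 of 23 were called higher and 5 lower (median 0.42). Gimap1 stood at 71.7, 64.7 and 70.6 CPM in total RNA and 223, 205 and 198 CPM in polysome RNA (log2 ratio 1.60, SE 0.13), while Gbp7 stood at 35.1, 25.6 and 37.1 CPM and 11.3, 11.5 and 18.7 CPM (log2 ratio -1.24, SE 0.19). Without the pair of libraries from lysate 3, a setting added after the data were seen, 3 members were lower. Of transcripts known for retained introns, 20 of 41 were called higher and 8 lower (median 0.27), and with library totals as the only scaling 11 were higher and 15 lower. The splicing factors Srsf3 and Srsf7 had log2 ratios of 1.38 and 1.33, and Nktr and Atm had -1.21 and -1.50.

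Of the Sm and LSm proteins, which form rings on small nuclear RNAs and on decaying mRNAs, 11 of 24 were called higher and 4 lower. This family was chosen after the values were seen, and its median of 0.14 turned to -0.09 with library totals as the only scaling. It was 0.02 without total RNA replicate 1 and 0.08 without polysome replicate 3. Snrpd3, of the Sm ring, had 143, 154 and 158 CPM in total RNA and 538, 504 and 453 CPM on polysomes (log2 ratio 1.72, SE 0.11). Lsm12, which is outside these rings and was named after its values were seen, had 114, 134 and 118 CPM and 37.9, 38.4 and 38.2 CPM (log2 ratio -1.68, SE 0.12). Of the solute carriers, also chosen after the values were seen, 34 of 180 were called higher and 61 lower (median -0.12), beside 28.4% and 30.9% of all genes. With library totals as the only scaling, 18 of the carriers were higher and 79 lower. Slc35a3, a Golgi carrier of UDP-N-acetylglucosamine and named in the same way, had 78.8, 86.5 and 75.2 CPM in total RNA and 18.3, 10.9 and 17.9 CPM in polysome RNA (log2 ratio -2.35, SE 0.16).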
